A study of Drosophila melanogaster with 30 samples.

Results

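The genes described here are 8 transcription factors that pattern the insect leg: Bar homeodomain factor B-H2, apterous (ap), bric a brac 1 and 2 (bab1, bab2), Pox neuro (Poxn), the T-box gene H15, tiptop (tio) and Sex combs reduced (Scr). They were taken as every probe set that either deposited table of comparisons names after one of these genes. This gave 9 probe sets of 8 genes, of 3556 probe sets of 3173 genes named in either table and 18769 probe sets on the array without controls. The gene ap has 2 probe sets, 1624412_at and 1639498_a_at. The other probe sets are 1640139_at for B-H2, 1623466_at for bab1, 1624060_at for bab2, 1632977_at for Poxn, 1625535_at for H15, 1632325_at for tio and 1633345_at for Scr. Of the 9, 6 (B-H2, ap 1624412_at, bab1, bab2, H15 and Scr) are named in the authors' deposited table of cut comparisons, and 3 (ap 1639498_a_at, tio and Poxn) in their table of culture comparisons, each after an overall test on these same arrays. The cut effects of the 6 and the culture effects of the 3 were therefore part of how these probe sets came to be named.

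The study profiled prothoracic leg imaginal discs, the larval sacs of epithelium that become the forelegs, during early regeneration. There were 10 groups of 3 arrays, 30 arrays in all, and the titles call the 3 samples biological replicates. Cut discs were divided into an anterior 1/4 and a posterior 3/4, and each fragment was cultured for 12 or 24 h before its GFP-positive region was taken, which made 4 groups. The matching anterior and posterior regions of uncut discs were taken after 12 or 24 h of culture (4 groups) and without culture, at 0 h (2 groups). All discs came from male larvae of 100 h, kept at 25 °C, and culture took place inside the abdomen of adult female flies. All larvae, controls included, were w/Y and carried 1 chromosome with AyGAL4 and UAS-GFP over a + chromosome, together with puc[E69-I]-GAL4 over UAS-flp. The puc driver follows puckered, a target of JNK signalling, and through flp it sets off a permanent GFP mark in the cell and its descendants. Only the cut groups were isolated by GFP, so the effect of the cut and that of choosing marked cells cannot be told apart. How many discs made 1 sample is not given in the sources used here.

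A leg disc holds the future leg as concentric rings, the centre forming the claw and tarsus and the rim forming the body wall. Homeodomain factors of the Bar and apterous kind and the bab genes act in the tarsal rings, T-box and Wingless or Dpp targets divide ventral from dorsal, tiptop and its paralogue teashirt act in the proximal trunk-like part, and Hox genes such as Scr tell the disc which segment it belongs to. In regenerating discs such factors are of interest because cells near a wound can change their position within the pattern.

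The values deposited for each array are log2 values from RMA, the usual summary of Affymetrix probes, and they are relative. Each probe set averaged 0 within each of 3 sets of arrays, to within 8.2e-09. The first set holds 15 arrays (cut anterior at 12 and 24 h, and uncut posterior at 0, 12 and 24 h). The second holds 9 arrays (cut posterior at 24 h, and uncut anterior at 0 and 24 h), and the third holds 6 arrays (cut posterior and uncut anterior, both at 12 h). A difference between groups of different sets therefore carries an unknown offset for each probe set, and there set and group cannot be told apart. Of 17 comparisons that follow from the design, 14 cross sets, among them every comparison of a cut with an uncut fragment of the same region. The fold changes in the authors' deposited tables are the same differences, to within 1.6e-08, and carry the same offset. The offset cancels when the cut effect is averaged over both regions, because each time then has 1 cut and 1 uncut group from each set, and it cancels likewise for the mean difference between regions. These averages are the results given first. Levels cannot be compared between genes, and the labelled tissue could not be checked by the level of its markers. On these centred values, arrays of 1 group correlated with r between 0.108 and 0.848 over all probe sets. Such an r depends also on how far a group lies from the mean of its set. It is therefore not a plain measure of how well replicates match. The number of arrays limits the precision.

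Of the tarsal factors, B-H2 is a homeodomain protein of the distal tarsal segments. In the 15-array set its relative log2 values were -2.46, -2.59 and -3.06 in cut anterior fragments at 12 h and -1.96, -1.23 and -2.79 at 24 h. The uncut posterior regions of that set read 1.72, 1.68 and 1.52 at 0 h, 1.75, 1.26 and 1.08 at 12 h, and 1.89, 1.60 and 1.59 at 24 h. All 6 cut anterior arrays lay below all 9 uncut posterior arrays. In the 9-array set B-H2 read 1.31, 1.35 and 1.20 in cut posterior fragments at 24 h, against -0.98, -1.07 and -0.20 in uncut anterior regions at 0 h and -1.18, -0.50 and 0.08 at 24 h. In the 6-array set it read 1.14, 1.07 and 0.82 in cut posterior fragments, against -0.59, -2.13 and -0.32 in uncut anterior regions. Posterior arrays were thus the high ones in all 3 sets, whether cut or uncut, and the groups of different region did not overlap.

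The LIM-homeodomain factor ap acts in the fourth tarsal segment and is better known as the dorsal selector of the wing. Its probe set 1624412_at read -2.27, -1.91 and -2.08 in cut anterior fragments at 12 h and -1.79, -1.68 and -1.95 at 24 h, against 1.35, 0.74 and 0.78 in uncut posterior regions at 12 h and 1.56, 1.35 and 1.16 at 24 h. In the 6-array set the same probe set read 0.41, 0.86 and 0.24 in cut posterior fragments, against -0.75, -0.60 and -0.16 in uncut anterior regions. Here too the posterior arrays were the high ones and the groups did not overlap. In the 9-array set it read 0.65, 0.89 and -0.05 in cut posterior fragments, against 0.40, -0.26 and -0.79 in uncut anterior regions at 0 h and -0.69, -0.59 and 0.44 at 24 h, and these groups overlapped. The probe set 1639498_a_at also had its cut anterior arrays lowest in the 15-array set, over a narrower range, from -0.70 in a cut anterior array at 24 h to 0.92 in an uncut posterior array at 0 h.

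The BTB factors bab1 and bab2 lie next to each other in the RefSeq gene order and divide the tarsus into segments. In the 15-array set bab1 read -1.97, -1.53 and -1.84 in cut anterior fragments at 12 h and -1.06, -1.25 and -1.16 at 24 h. It read 0.23, 0.26 and 0.26 in uncut posterior regions at 12 h and 1.69, 0.89 and 1.30 at 24 h. In that set bab2 read -0.85, -0.54 and -0.74 in cut anterior fragments at 12 h and -0.25, -0.31 and -0.24 at 24 h, against 0.13, -0.08 and 0.01 in uncut posterior regions at 12 h and 0.72, 0.25 and 0.44 at 24 h. For both genes every cut anterior array lay below every uncut posterior array of the set, where cut and region coincide. In the 6-array set the mean of bab1 was 0.30 in cut posterior fragments and -0.30 in uncut anterior regions. That of bab2 was -0.09 and 0.09. In the 9-array set the mean of bab1 was 0.07 in cut posterior fragments, against -0.16 in uncut anterior regions at 0 h and 0.09 at 24 h. In the 9-array set the cut posterior fragments were the low group for bab2, with -0.58, -0.44 and -0.35, against 0.85, 0.41 and 0.12 in uncut anterior regions at 0 h and 0.11, -0.16 and 0.03 at 24 h.

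**Figure D1:**
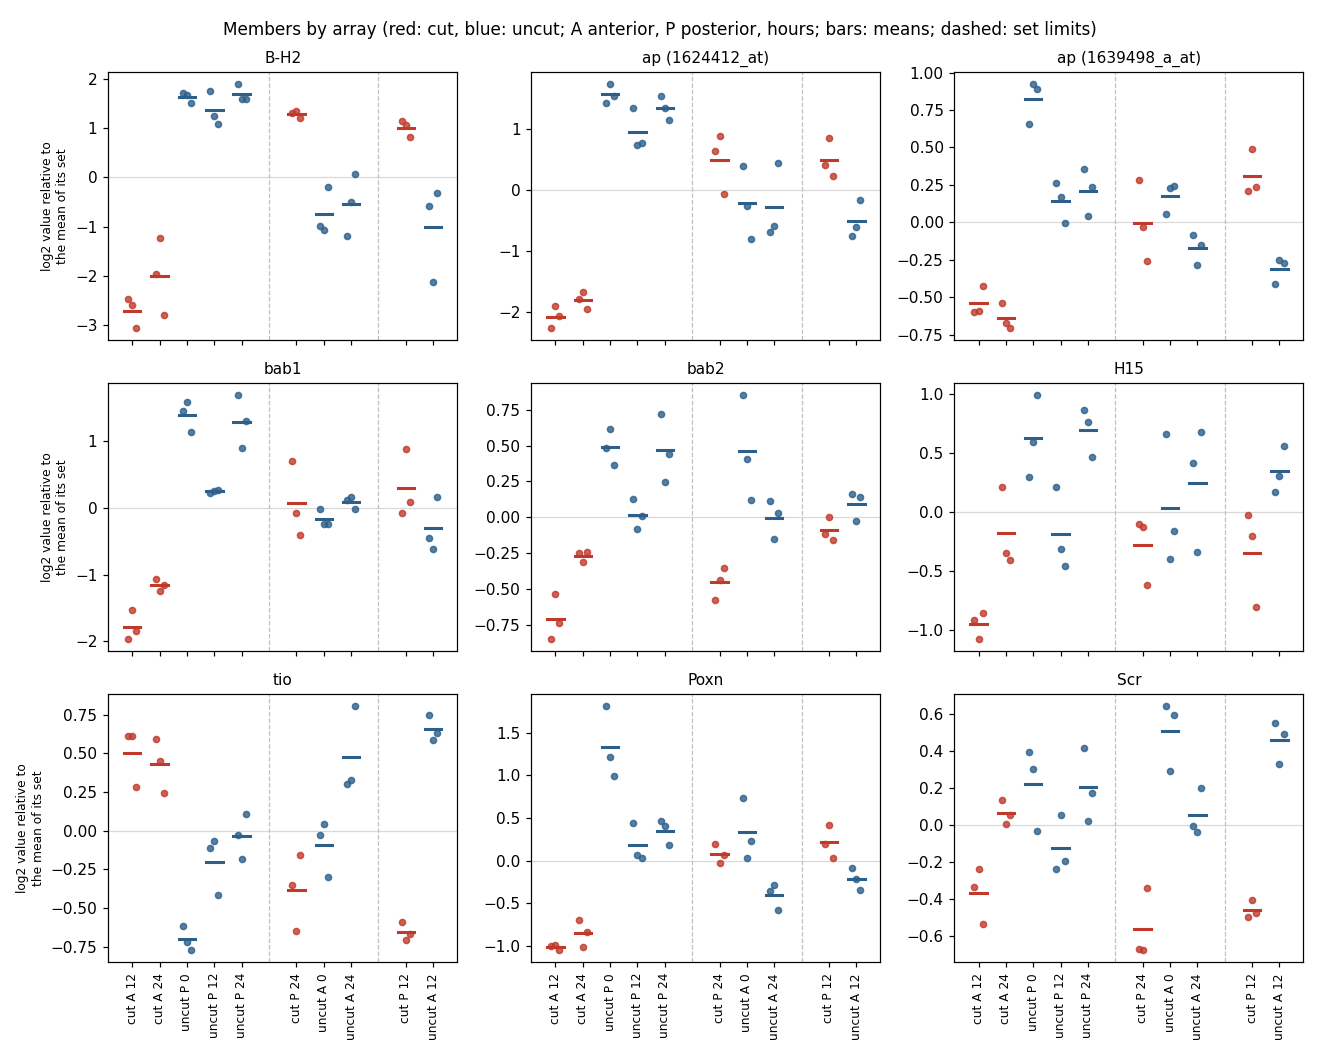
Relative log2 value (vertical axis, per probe set) of the 9 probe sets on each of the 30 arrays, grouped by treatment, region (A anterior, P posterior) and hours of culture, with cut arrays in red, uncut arrays in blue and group means as bars. Dashed lines part the 3 sets of arrays, within which alone heights may be compared: B-H2 is high in every posterior group, and tio is highest in anterior groups of cultured discs.

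Poxn, a Pax factor of taste bristles and tarsal segments, was low and tightly grouped in cut anterior fragments, at -1.007, -0.997 and -1.052 at 12 h and -0.69, -1.01 and -0.84 at 24 h. Uncut posterior regions of the same set read 1.81, 1.22 and 0.99 at 0 h, 0.44, 0.06 and 0.03 at 12 h, and 0.46, 0.41 and 0.18 at 24 h. The cut anterior arrays lay below all of these. H15, a T-box factor of ventral leg fate that lies next to its paralogue mid, was less even among replicates. In cut anterior fragments it read -0.92, -1.07 and -0.86 at 12 h and 0.21, -0.35 and -0.41 at 24 h, against 0.21, -0.32 and -0.46 in uncut posterior regions at 12 h and 0.86, 0.76 and 0.46 at 24 h. Its cut and uncut groups of each time did not overlap in this set.

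The proximal factor tio ran the other way from the tarsal genes. It read 0.61, 0.61 and 0.28 in cut anterior fragments at 12 h and 0.59, 0.45 and 0.24 at 24 h, against -0.61, -0.72 and -0.77 in uncut posterior regions at 0 h, -0.11, -0.07 and -0.41 at 12 h, and -0.03, -0.18 and 0.11 at 24 h. In the 6-array set tio read -0.59, -0.70 and -0.67 in cut posterior fragments, against 0.75, 0.59 and 0.63 in uncut anterior regions. The anterior arrays were the high ones in both sets, with no overlap. In the 9-array set tio read -0.35, -0.65 and -0.15 in cut posterior fragments, against -0.03, 0.05 and -0.30 in uncut anterior regions at 0 h and 0.30, 0.33 and 0.80 at 24 h. There the cut posterior arrays overlapped the uncultured anterior ones and lay below the cultured ones. Scr, the Hox gene of the prothoracic segment that gives the male foreleg its sex comb, read -0.33, -0.24 and -0.53 in cut anterior fragments at 12 h and 0.14, 0.01 and 0.05 at 24 h, against -0.24, 0.06 and -0.19 in uncut posterior regions at 12 h and 0.42, 0.02 and 0.17 at 24 h. In the 6-array set Scr read -0.49, -0.41 and -0.48 in cut posterior fragments, against 0.55, 0.33 and 0.49 in uncut anterior regions. In the 9-array set it read -0.67, -0.68 and -0.34 in cut posterior fragments, against -0.01, -0.04 and 0.20 in uncut anterior regions at 24 h. For Scr the cut arrays were the low ones in the 2 sets that hold cut posterior fragments, while against uncut posterior regions the cut anterior groups met at 12 h (highest cut array and lowest uncut array both at -0.24) and overlapped at 24 h.

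The first comparison asks how cutting, with isolation of marked cells, altered these genes beyond culture itself. Averaged over the 2 regions at 12 h, 8 of the 9 probe sets were lower in cut than in uncut cultured discs and none was higher, at an adjusted p under 0.05 (limma on all 30 arrays, Benjamini-Hochberg over all 18769 probe sets). Over the whole array 10% of probe sets passed downwards and 6.52% upwards. Since 6 of the 9 were named through the authors' own cut comparisons on these arrays, the count is not independent evidence of a shared direction. Their median difference was -0.58 on the log2 scale, against 0.01 over all probe sets. B-H2 fell by 1.02 on the log2 scale (SE 0.26, 2.03-fold, adjusted p = 0.00691) and ap 1624412_at by 1.02 (SE 0.20, 2.02-fold, adjusted p = 0.000686). H15 fell by 0.73 (SE 0.19, adjusted p = 0.00845), bab1 by 0.71 (SE 0.17, adjusted p = 0.00437) and bab2 by 0.46 (SE 0.10, adjusted p = 0.0014). Scr fell by 0.58 with the smallest adjusted p of the members (SE 0.09, adjusted p = 5.13e-05). Poxn fell by 0.39 (adjusted p = 0.0287) and tio by 0.30 (adjusted p = 0.0338). The second ap probe set, 1639498_a_at, differed by -0.03 (95% interval -0.20 to 0.14, adjusted p = 0.87). The ap probe sets thus disagree at 12 h, their intervals being -1.42 to -0.61 and -0.20 to 0.14. In bulk RNA of this kind, fewer cells of a type and less RNA per cell cannot be told apart.

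At 24 h again 8 of the 9 probe sets were lower and none higher, where 8.65% of all probe sets passed downwards and 9.15% upwards, and the members' median was -0.60 against 0.01. The largest differences were those of bab1, which fell by 1.23 (SE 0.17, 2.35-fold, adjusted p = 1.05e-05), and of ap 1624412_at, which fell by 1.19 (SE 0.20, 2.29-fold, adjusted p = 8.99e-05). B-H2 fell by 0.93 (adjusted p = 0.0114), H15 by 0.70 (adjusted p = 0.00865) and bab2 by 0.60 (adjusted p = 6.48e-05). Scr fell by 0.38 (adjusted p = 0.00326), Poxn by 0.35 (adjusted p = 0.0416) and ap 1639498_a_at by 0.34 (adjusted p = 0.00437). The proximal gene tio differed by -0.20 (95% interval -0.40 to 0.00, adjusted p = 0.184). No member's mean cut effect differed between 24 and 12 h after adjustment (0.368% of all probe sets did), although 2 of 9 had an unadjusted p under 0.05. These were bab1, whose effect at 24 h was lower by 0.52 (adjusted p = 0.438), and ap 1639498_a_at, lower by 0.31 (adjusted p = 0.303).

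The limits of these calls differ by gene. Quantile normalization of the deposited values ended the 12 h calls of B-H2 (-0.28, adjusted p = 0.558), bab1 (-0.37, adjusted p = 0.205) and Poxn (-0.23, adjusted p = 0.155). The 2.03-fold of B-H2 thus did not hold under that rescaling, while median centring ended none of these calls. The rescaling was run on values already centred within sets, so it need not keep the cancellation of the offsets. With quantile normalization tio differed by -0.65 at 12 h. Leaving out single arrays ended other calls. The 12 h call of tio was lost in 7 such fits, without cut anterior array 3, cut posterior array 2 or 3, uncut anterior array 1 or 3, or uncut posterior array 1 or 2 (adjusted p between 0.0518 and 0.116). The 12 h call of Poxn was lost without cut anterior array 3, cut posterior array 3, uncut anterior array 1 or 2, or uncut posterior array 1 (adjusted p between 0.0504 and 0.0898). At 24 h the call of Poxn was lost without array 2 or 3 of either cut group, or array 1 or 2 of either uncut group (adjusted p between 0.0625 and 0.111). The calls of ap 1624412_at, bab2, H15 and Scr held at both times in all 18 alternatives, as did the 24 h calls of B-H2, bab1 and ap 1639498_a_at.

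**Figure D2:**
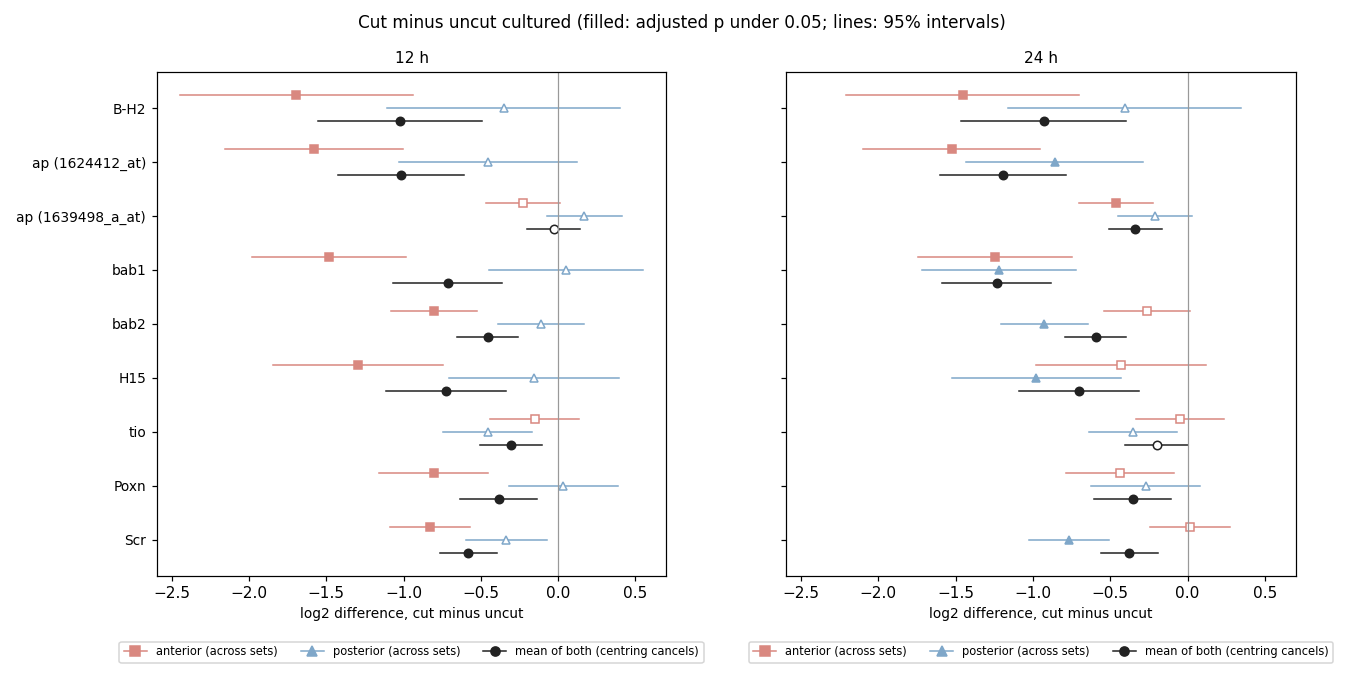
Cut minus uncut cultured difference (horizontal axis, log2) of each probe set at 12 h and 24 h, in the anterior region (red squares), in the posterior region (blue triangles) and averaged over both (black circles), with 95% intervals and filled symbols for an adjusted p under 0.05. The averages, in which the centring cancels, lie below 0 for all 9 probe sets at both times (ap 1639498_a_at at 12 h turned to 0.11 with quantile normalization), while the single regions cross sets of arrays.

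Markers of other cell types moved in the same comparison. Markers, like members, have names only where the authors' tables list them, so the counts below cover genes that had passed the authors' overall tests. Of the 7 genes of a list of myoblast and muscle markers 5 were named, and their 6 probe sets were all lower in cut discs at 12 h and 3 of 6 at 24 h (medians -0.58 and -0.31). Of 6 hemocyte markers 4 were named, and 3 were higher at 12 h and all 4 at 24 h (medians 0.81 and 1.36). Of 6 neuron and glia markers 4 were named, of which 3 were lower and 1 higher at both times, and the 1 named marker of disc epithelium, grh, was lower by 0.45 and 0.36. Of 4 tracheal markers 2 were named, with 2 lower at 12 h and 1 at 24 h. The yolk protein gene Yp1, the 1 named marker of 6 for fat body and adult host, differed by 0.00 and 0.94 and passed neither test. A summed level cannot be formed from centred values, and the part of other cell types in the members' changes was not tested.

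The single regions, which cross sets, are given beside these averages. They are the comparisons of the authors' overall test that named 6 of the 9, so the counts are not independent evidence. In the anterior region 7 of 9 probe sets were lower in cut fragments at 12 h, where 5.69% of all passed downwards, and 4 of 9 at 24 h, where 3.03% did. At 12 h B-H2 differed by -1.69 (SE 0.37), ap 1624412_at by -1.58 (SE 0.28), bab1 by -1.48 (SE 0.24) and H15 by -1.29 (SE 0.27). Quantile normalization ended the 12 h anterior call of B-H2 (-0.93, adjusted p = 0.182). The 24 h anterior call of B-H2 (-1.46, adjusted p = 0.0115) was lost in 5 of 12 alternatives, among them those without cut array 3 (-1.06, adjusted p = 0.0871) or uncut array 3 (-1.15, adjusted p = 0.0819). That of ap 1639498_a_at was lost without cut array 2 (adjusted p = 0.0569) or uncut array 1 (adjusted p = 0.056). Poxn, not called there, passed with quantile normalization (adjusted p = 0.0329). In the posterior region none of the 9 passed at 12 h by limma on all arrays, where 5.05% of all passed, and 2 of 9 had an unadjusted p under 0.05. Under alternatives tio passed there in 4 of 12 (lowest adjusted p = 0.00291), 1 of them the fit without uncut array 3 (adjusted p = 0.0486), and Scr in 2 of 12 (lowest adjusted p = 0.024). At 24 h 5 of 9 were lower in the posterior region, where 5.04% of all passed downwards, led by bab1 at -1.22 (SE 0.24), H15 at -0.98 (SE 0.27) and bab2 at -0.93 (SE 0.14). The 24 h posterior call of ap 1624412_at lay at the threshold (-0.86, adjusted p = 0.0498) and was lost in 9 of 12 alternatives, among them the replicate block (adjusted p = 0.0539) and 5 fits without 1 array (all but the one without cut array 2; -0.59 without cut array 3). That of H15 was lost with quantile normalization (adjusted p = 0.0739) and without cut array 3 (adjusted p = 0.0976) or uncut array 1 (adjusted p = 0.0879). A cut effect past the threshold in 1 region and not in the other was not shown to differ: the difference of the cut effects between regions passed for 0 of 9 members at 12 h (0.208% of all, 8 of 9 at an unadjusted p under 0.05) and for 0 of 9 at 24 h (0.123% of all, 2 of 9 unadjusted), by limma on all arrays. Some alternatives did pass: at 12 h bab1 in 4 of 18 (adjusted p between 0.00944 and 0.0493, 2 of them without cut posterior array 1 or uncut anterior array 2), bab2 in 2 of 18 and Poxn in 1 of 18, and at 24 h Scr in 1 of 18 (without uncut posterior array 2, adjusted p = 0.0254). That difference also crosses sets. The nearest to the threshold were bab1 at 12 h, whose anterior effect was lower by 1.53 (adjusted p = 0.0568), and Scr at 24 h, whose anterior effect was higher by 0.78 (adjusted p = 0.0902). Between times, 1 of 9 anterior cut effects differed, that of Scr, which was higher at 24 than at 12 h by 0.84 (SE 0.18, adjusted p = 0.0113), where 2.15% of all passed, again across sets. None of the 9 posterior cut effects differed between times by limma on all arrays, where 0.474% of all passed and 5 of 9 had an unadjusted p under 0.05. There bab2 (-0.81, adjusted p = 0.0511) passed in 6 of 18 alternatives and bab1 (-1.27, adjusted p = 0.1) in 3 of 18, among them fits without uncut 24 h array 2 for both (adjusted p = 0.0105 and 0.0233), uncut 12 h array 1 for bab2 (adjusted p = 0.0382) and cut 24 h array 1 for bab1 (adjusted p = 0.0233).

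The second comparison asks how the anterior region differed from the posterior region, averaged over cut and uncut discs of the same time. In this average the centring again cancels. The samples were the GFP-positive regions of cut fragments and the matching regions of uncut discs, not whole fragments. At 12 h 5 of 9 probe sets were lower and 2 higher in the anterior region, where 1.56% and 1.48% of all probe sets were. The members were named through the authors' tests on these same arrays. The cut comparisons among those tests cross sets with unlike shares of anterior and posterior arrays. The region counts here and below are therefore a description and not independent evidence. B-H2 was lower in the anterior by 3.04 (SE 0.26, 8.25-fold, adjusted p = 1.59e-08), ap 1624412_at by 2.02 (SE 0.20, 4.07-fold, adjusted p = 1.95e-07) and bab1 by 1.32 (SE 0.17, 2.49-fold, adjusted p = 1.55e-05). Poxn was lower by 0.81 (adjusted p = 0.000117) and ap 1639498_a_at by 0.65 (adjusted p = 1.11e-05). The proximal gene tio was higher in the anterior region by 1.01 (SE 0.10, 2.01-fold, adjusted p = 1.95e-07). Scr was higher by 0.34 (adjusted p = 0.0343), a call lost in 10 of 18 alternatives: median centring of the arrays, and 9 of the 12 fits that left out 1 array (adjusted p up to 0.104). Without cut anterior array 3, uncut anterior array 2 or uncut posterior array 2 it was kept. With median centring 332 probe sets of all were lower and 209 higher at 12 h, against 293 and 278. H15 differed by -0.04 (95% interval -0.43 to 0.35) and bab2 by -0.27 (95% interval -0.47 to -0.07, adjusted p = 0.134).

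At 24 h 5 probe sets were lower and 1 higher in the anterior region, where 2.08% and 0.938% of all were. B-H2 was lower by 2.76 (SE 0.26, 6.75-fold, adjusted p = 1.6e-07), ap 1624412_at by 1.97 (adjusted p = 4.47e-07), bab1 by 1.22 (adjusted p = 6.7e-05), Poxn by 0.84 (adjusted p = 8.68e-05) and ap 1639498_a_at by 0.51 (adjusted p = 0.000411). The gene tio was higher by 0.66 (SE 0.10, adjusted p = 0.000127). Scr differed by 0.24 (95% interval 0.05 to 0.42, adjusted p = 0.163), H15 by -0.17 (95% interval -0.56 to 0.21) and bab2 by -0.14 (95% interval -0.34 to 0.05). The calls of B-H2, both ap probe sets, bab1, Poxn and tio held at both times in all 18 alternatives. The paired bab genes thus gave different results, bab1 passing at both times and bab2 at neither (at 12 h bab2 passed when only the compared groups were fitted, adjusted p = 0.0431), though the difference between the genes was not tested. Of the 4 named neuron and glia markers 1 was lower in the anterior region at 12 h and 3 at 24 h, with the glial gene repo at -1.93 and -1.62, and ase, which passed at neither time, at -0.32 and 0.40. Of the 4 hemocyte markers none was called at 12 h by limma, with 1 at an unadjusted p under 0.05, and Sr-CI was higher at 24 h by 0.74 (medians 0.25 and 0.61). Of the 6 myoblast and muscle probe sets none was called at 12 h by limma, with 2 at an unadjusted p under 0.05, and Him was higher at 24 h by 0.48. Of the 2 tracheal markers dys was lower at 24 h by 0.41, while grh and Yp1 passed at neither time. The part of other cell types in the members' differences was not tested.

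**Figure D3:**
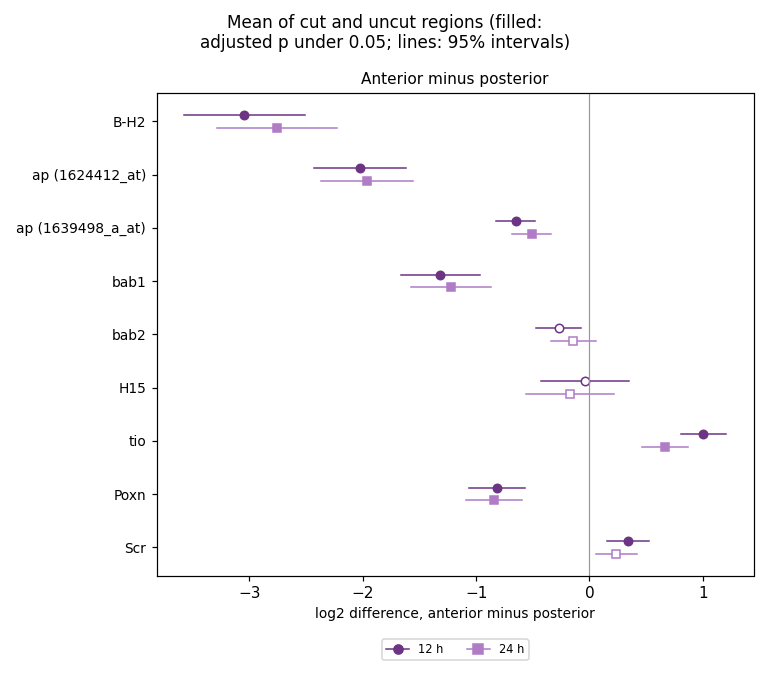
Anterior minus posterior difference (horizontal axis, log2) of each probe set, averaged over cut and uncut discs, at 12 h (dark circles) and 24 h (light squares), with 95% intervals and filled symbols for an adjusted p under 0.05. B-H2 lies farthest below 0, at -3.04 and -2.76, and tio is the member above 0 that passed at both times.

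Region differences within single treatments cross sets. In uncultured discs B-H2 differed by -2.39 (SE 0.37, adjusted p = 0.000795), ap 1624412_at by -1.79 (adjusted p = 0.000857), bab1 by -1.56 (adjusted p = 0.000857) and Poxn by -1.005 (adjusted p = 0.00241), and tio by 0.61 (adjusted p = 0.0338). In total 5 members were lower and 1 higher there, where 0.506% and 0.208% of all probe sets were (95 and 39, and 29 and 3 with quantile normalization). The tio call was lost in 8 of 12 alternatives, 5 of them fits without 1 array (all but the one without anterior array 3, adjusted p up to 0.157). Quantile normalization also ended the calls of B-H2 (-1.86, adjusted p = 0.0944) and bab1 (adjusted p = 0.0562), and fitting only the compared groups that of Poxn (adjusted p = 0.114). In uncut discs 2 were lower and 2 higher at 12 h, where 0.448% and 0.155% of all were, and 4 lower and none higher at 24 h, where 0.634% and 0.24% were. In cut discs 6 were lower and 1 higher at 12 h, where 1.38% and 1.11% of all were, and 5 lower and 2 higher at 24 h, where 1.4% and 0.506% were. No single sign held for bab2, H15 and Scr. Group means of bab2, anterior against posterior, were -0.71 and -0.09 in cut discs at 12 h but -0.27 and -0.46 at 24 h. Scr was higher in the anterior region of uncut 12 h discs (0.58) and of cut 24 h discs, and both were called. The first call was lost when only the compared groups were fitted (adjusted p = 0.0697). H15 differed by -0.59 in uncultured and 0.53 in uncut 12 h discs. Scr differed by 0.29 in uncultured and -0.15 in uncut 24 h discs. None of these last differences was called. The difference of bab1 in uncut 12 h discs, -0.55, was not called either. The difference of B-H2 ranged from -3.72 in cut discs at 12 h to -2.23 in uncut discs at 24 h.

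The third comparison asks what culture in an adult abdomen did to uncut discs. The probe sets ap 1639498_a_at, tio and Poxn were named through the authors' own culture comparisons on these arrays, so their culture effects are a description and not independent evidence. Of the 4 parts of this comparison, 3 lie within a set: the posterior region at 12 and 24 h, which share their 0 h arrays, and the anterior region at 24 h. In the posterior region at 12 h 5 probe sets were lower and 1 higher in cultured discs, where 9.76% and 10.5% of all were. Poxn fell by 1.16 (SE 0.17, 2.23-fold, adjusted p = 1.34e-05), bab1 by 1.14 (SE 0.24, 2.21-fold, adjusted p = 0.000847), ap 1639498_a_at by 0.68 (SE 0.12, adjusted p = 9.28e-05) and bab2 by 0.47 (adjusted p = 0.0127). H15 fell by 0.81 (adjusted p = 0.0304), a call lost in 5 of 12 alternatives: quantile normalization, or without array 2 or 3 of the cultured or of the uncultured group (adjusted p up to 0.17). Without array 2 of the cultured group the calls of bab2 (adjusted p = 0.0629) and tio (adjusted p = 0.0568) were lost too, and that of bab2 also without array 2 of the uncultured group (adjusted p = 0.071). The gene tio rose by 0.50 (SE 0.14, 1.42-fold, adjusted p = 0.00945). B-H2 differed by -0.28 (95% interval -1.03 to 0.47), ap 1624412_at by -0.62 (95% interval -1.19 to -0.04, adjusted p = 0.138) and Scr by -0.35 (95% interval -0.61 to -0.09, adjusted p = 0.0523). Scr passed with array weights (adjusted p = 0.0292) and without cultured array 2 (adjusted p = 0.0285) or uncultured array 3 (adjusted p = 0.0118). The probe set ap 1624412_at passed with array weights (adjusted p = 0.00679) and in the fit of only the compared groups (adjusted p = 0.0276).

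At 24 h in the posterior region 2 probe sets were lower and 1 higher, where 9.56% and 14.6% of all were. Poxn fell by 0.99 (SE 0.17, adjusted p = 7.56e-05) and ap 1639498_a_at by 0.61 (adjusted p = 0.000256), while tio rose by 0.67 (SE 0.14, adjusted p = 0.000635). In the anterior region at 24 h 4 were lower and 1 higher, where 18.1% and 14% of all were. There Poxn fell by 0.74 (adjusted p = 0.00141), Scr by 0.46 (adjusted p = 0.00664), bab2 by 0.46 (adjusted p = 0.00994) and ap 1639498_a_at by 0.35 (adjusted p = 0.0246), and tio rose by 0.57 (adjusted p = 0.00237). The anterior call of ap 1639498_a_at was lost in 7 of 12 alternatives, among them those without cultured array 2 (adjusted p = 0.0966) or uncultured array 2 (adjusted p = 0.0721) or 3 (adjusted p = 0.0815). That of bab2 was lost in 4 of 12, among them those without cultured array 2 (adjusted p = 0.0536) or uncultured array 1 (-0.27, adjusted p = 0.103). Neither changed sign. Array weights ended the anterior calls of Scr (adjusted p = 0.0866) and Poxn (adjusted p = 0.0529), and quantile normalization that of Scr (adjusted p = 0.0834). Quantile normalization ended the tio call in each of the 3 comparisons. The culture effect at 24 h did not pass for a difference between regions in any of the 9 members by limma, where 1.28% of all did and 2 members had an unadjusted p under 0.05. B-H2 and ap 1624412_at passed in none of the 3 comparisons on all arrays.

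Other cell type markers moved with culture as well. Of the 6 named myoblast and muscle probe sets 2 were higher in cultured posterior regions at 12 h, 5 at 24 h, and 2 in cultured anterior regions at 24 h (medians 0.28, 0.57 and 0.21). Of the 4 hemocyte markers none was called in the posterior region at 12 h by limma (median 0.42, 0 at an unadjusted p under 0.05), 1 was higher there at 24 h and all 4 were higher in the anterior region at 24 h (medians 0.72 and 1.13). Of the 4 neuron and glia markers 1 was higher and 1 lower in the posterior region at 12 h, and 2 were higher at 24 h in each region. Of the 2 tracheal markers 1 was lower in the posterior region at 12 h, none was called there at 24 h, and 1 was higher and 1 lower in the anterior region. Yp1 was higher by 3.16 in the anterior region, and differed by 0.29 and 0.41 in the posterior region, which passed neither test. Their part in the members' values was not tested.

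**Figure D4:**
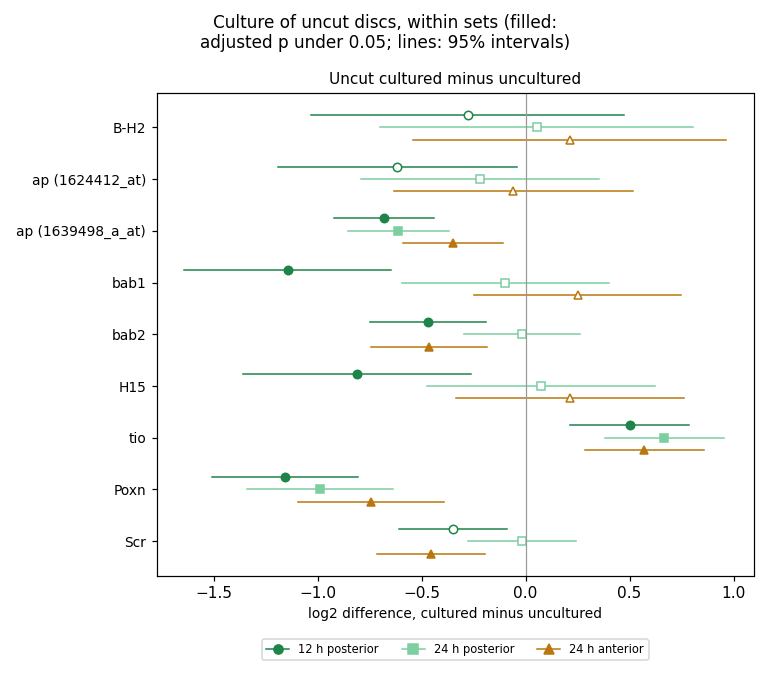
Uncut cultured minus uncultured difference (horizontal axis, log2) of each probe set in the 3 comparisons that lie within a set of arrays, with 95% intervals and filled symbols for an adjusted p under 0.05. The gene tio lies above 0 and Poxn and ap 1639498_a_at lie below 0 in all 3 comparisons, and these 3 probe sets were named through the authors' own culture comparisons.

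The remaining culture comparison, the anterior region at 12 h, crosses sets. In it tio was higher by 0.75 (adjusted p = 0.000459), and ap 1639498_a_at and Poxn were lower by 0.49 (adjusted p = 0.00492) and 0.55 (adjusted p = 0.029), 1 probe set higher and 2 lower where 9.51% and 6.29% of all were. The Poxn call was lost in 5 of 12 alternatives: array weights, only the compared groups, and the fits without cultured array 2 or 3 or uncultured array 1 (-0.35 without the last, adjusted p = 0.157). Without uncultured array 3 bab2 passed there (-0.54, adjusted p = 0.00867). Time itself could be compared within the 15-array set. Between 24 and 12 h uncut posterior regions showed 1 member higher, bab1, which rose by 1.05 (SE 0.24, adjusted p = 0.0409), where 0.41% of all probe sets were higher. That call was lost in 8 of 12 alternatives, 5 of them fits without 1 array (all but the one without 24 h array 2), with adjusted p up to 0.302. With array weights bab2, H15 and Scr passed too (adjusted p = 0.000799, 0.00252 and 0.0244), and bab2 also without 24 h array 2 (adjusted p = 0.0348). In cut anterior fragments no member differed between 24 and 12 h after adjustment by limma on all arrays, where 2.8% of all did and 4 of 9 had an unadjusted p under 0.05. The closest were Scr at 0.43 (adjusted p = 0.0641) and bab2 at 0.44 (adjusted p = 0.0836). Under alternatives bab1 passed when only the compared groups were fitted (0.62, adjusted p = 0.0369), H15 then (adjusted p = 0.0449) and with array weights (adjusted p = 0.0416), bab2 with array weights (adjusted p = 0.0467) and Scr with median centring (adjusted p = 0.0458).

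Within the 15-array set the group means of B-H2 ran, from low to high, from cut anterior at 12 h (-2.70 ± 0.31, SD, n = 3) and at 24 h (-1.99 ± 0.78) to uncut posterior at 12 h (1.36 ± 0.35), 0 h (1.64 ± 0.11) and 24 h (1.69 ± 0.17). Neighbours among the 3 uncut groups did not differ beyond their spread, nor did the 2 cut groups. The order of ap 1624412_at was cut anterior at 12 h, cut anterior at 24 h, then uncut posterior at 12 h, 24 h and 0 h. For bab1 the uncut posterior group at 12 h (0.25 ± 0.02) stood apart from those at 24 h (1.30 ± 0.40) and 0 h (1.39 ± 0.23), which overlapped. For tio the order was uncut posterior at 0 h, 12 h and 24 h, then cut anterior at 24 h and 12 h, and the last 2 overlapped each other, as did the uncut groups at 12 and 24 h.

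As a description over the 10 group means, which span the 3 sets, B-H2 followed ap 1624412_at with Pearson r = 0.97 and bab1 with r = 0.91, and ap 1624412_at followed bab1 with r = 0.96. The neighbours bab1 and bab2 had r = 0.77, and the ap probe sets had r = 0.90 with each other. Among 1494 other probe sets named in the tables whose group means spanned a log2 range of at least 1, the most like B-H2 was CG7777 (r = 0.98), the most like ap 1624412_at was gsb (r = 0.98), and the most like bab1 was CG16778 (r = 0.98). Those most like bab2, H15 and Scr were dsx (r = 0.97), CG32150 (r = 0.97) and ana (r = 0.95). For Poxn and ap 1639498_a_at it was SP1029 (r = 0.98 each), and for tio it was CG8483 (r = 0.96). Groups of the same set share their centring, so these values carry no p.

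Of a list of 40 leg patterning genes, 11 were matched to names in the tables, through 12 probe sets: the members and bi, zfh2 and Awh. Of the 12, 11 were lower in cut discs at 12 h and 11 at 24 h, averaged over regions, and none was higher (medians -0.67 and -0.65), where 10% and 8.65% of all probe sets were lower. All 12 have names only because the authors' overall tests on these arrays listed them, so these counts are not independent evidence. The T-box gene bi (optomotor-blind), a Dpp target, was lower in cut discs by 0.62 and 0.90 and lower in the anterior region by 1.24 and 1.22, at 12 and 24 h. The homeodomain gene zfh2 was lower in cut discs by 0.82 (adjusted p = 1.61e-07) and 0.59 (adjusted p = 9.34e-06), and lower in the anterior region by 0.77 at 12 h. The LIM-homeodomain gene Awh was lower in cut discs by 0.99 and 0.75, with no regional difference past the threshold. The other 29 genes of the list were not matched to a name in either table and are given no value here. Whether dysf, among them, is the gene named dys, counted above with the tracheal markers, was not settled here.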

How the data were processed

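Each of the 30 samples was hybridized as biotin-labelled cRNA, amplified in 2 cycles per the labels' protocols, to 1 Affymetrix array. Per the submitters' processing notes the authors used RMA and limma, whose versions are not given in the sources used here. The deposited value table holds log2 values per probe set, which the files show to be centred within 3 sets of arrays; that log base was inferred, since no header states it. The 2 deposited tables of comparisons hold log2 fold changes and, per the file headers, an overall adjusted p-value (largest listed 0.000999 and 0.000995). They gave the gene names.

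The 183 control probe sets were left out. With limma 3.58.1 in R 4.3.3, 18769 probe sets were fitted to 10 group means over all 30 arrays, with Benjamini-Hochberg adjustment per comparison and an adjusted p under 0.05 as the threshold. For 1 group of 3 arrays against another, the smallest two-sided p of an exact permutation test is 0.1. That bound does not apply to the averages over regions or treatments. No permutation test was run for either kind. The p-values rest on the spread between samples whose origin is given only as biological replicates. On simulated data for the anterior 12 h cut comparison with 18769 probe sets, 33 of 50 changes of 1.5-fold, 43 of 50 of 2-fold and 50 of 50 of 3-fold were recovered.

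Every probe set of the members was named, and the most like genes were taken by Pearson correlation of group means among named probe sets whose means spanned a log2 range of 1 or more. The members and lists were chosen with earlier results of these data known. The 8 comparisons in which the centring cancels or that lie within a set beyond the designed ones were chosen after seeing the data. RefSeq names and gene order came from the Release 6 plus ISO1 MT assembly. Alternatives were a replicate block, only the compared groups, median centring, quantile normalization, a robust prior, array weights and leaving out each array.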

Additional observations from a re-analysis of the deposited data

Results flagged for a closer look

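Scr (1633345_at) was marked because its cut effect differed between times in the anterior region, by the test of that difference. The anterior cut effect was 0.01 (SE 0.13) at 24 h and -0.83 (SE 0.13) at 12 h, a difference of 0.84 on the log2 scale (SE 0.18, adjusted p = 0.0113, limma), where 2.15% of all probe sets passed. This difference crosses sets of arrays, so set and group cannot be told apart. The mean cut effect of Scr over both regions, in which the centring cancels, differed between 24 and 12 h by 0.20 (95% interval -0.05 to 0.46, adjusted p = 0.592). In the posterior region the difference was -0.43 (SE 0.18, adjusted p = 0.43). The offsets of the sets enter the anterior and the posterior difference with opposite signs. The opposite directions of the 2 regions therefore cannot be told apart from an offset between sets.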

How the results depend on the processing

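Of 3384 member values under alternatives, no called one changed sign, and 97 uncalled ones did so by under 1 SE. The replicate numbers showed little pairing of the arrays. The mean r of deviations was 0.02 for the same number (38 of 135 pairs above 0.1) and -0.01 for other numbers (54 of 270). A replicate block ended 1 member call, ap 1624412_at at 24 h in the posterior region (adjusted p = 0.0539), gained 2 (Poxn at 24 h in the anterior region, adjusted p = 0.0411, and bab2 for the posterior cut effect by time, adjusted p = 0.0498) and left 222 of 225 member calls as they were. Of member calls, quantile normalization ended 19 and gained 5, fitting only the compared groups ended 14 and gained 8, and array weights ended 7 and gained 16. Median centring ended 2 and gained 2, a robust prior ended 2 and gained 0, and the fits without 1 array ended 81 and gained 12 of 1998 values. The filter on dim probe sets and the intensity trend were not run, since centred values hold no level. Array weights moved the number of probe sets past the threshold over the whole array to 2589 (cut effect 12 h posterior), 1866 (culture effect 12 h anterior), 5823 (culture effect 12 h posterior), 3962 (culture effect 24 h anterior), 60 (region difference uncultured) and 370 (region difference uncut 12 h). It moved others to 357 (region difference uncut 24 h), 1155 (region difference cut 12 h), 143 (cut effect by region 12 h), 40 (cut effect by region 24 h), 380 (cut effect by time posterior) and 4653 (mean cut effect 12 h). It moved others to 151 (mean cut effect 24 h minus 12 h), 2041 (mean region difference 12 h), 1138 (time difference cut anterior), 2308 (time difference uncut posterior) and 130 (culture effect at 24 h by region). Fitting only the compared groups moved the number of probe sets past the threshold over the whole array to 1127 (cut effect 24 h posterior), 1498 (culture effect 12 h anterior), 3361 (culture effect 24 h anterior), 35 (region difference uncut 24 h), 789 (region difference cut 12 h) and 161 (cut effect by region 12 h). It moved others to 263 (cut effect by time anterior), 898 (mean region difference 12 h), 0 (time difference uncut posterior) and 82 (culture effect at 24 h by region). Quantile normalization moved the number of probe sets past the threshold over the whole array to 2180 (cut effect 12 h posterior), 1910 (culture effect 12 h anterior), 3455 (culture effect 24 h anterior), 32 (region difference uncultured), 448 (region difference uncut 12 h) and 34 (region difference uncut 24 h). It moved others to 171 (mean cut effect 24 h minus 12 h), 1300 (mean region difference 12 h), 200 (time difference uncut posterior) and 8 (culture effect at 24 h by region). A robust prior moved the number of probe sets past the threshold over the whole array to 20 (cut effect by region 12 h), 14 (cut effect by region 24 h), 57 (cut effect by time posterior) and 73 (time difference uncut posterior). Leaving out 1 array in turn gave counts of 839 to 1528 (cut effect 12 h anterior), 393 to 875 (cut effect 12 h posterior), 836 to 1576 (cut effect 24 h anterior), 1055 to 2002 (cut effect 24 h posterior), 66 to 306 (region difference uncultured) and 46 to 170 (region difference uncut 12 h). Further ranges were 35 to 246 (region difference uncut 24 h), 247 to 368 (region difference cut 12 h), 203 to 344 (region difference cut 24 h), 3 to 44 (cut effect by region 12 h), 2 to 103 (cut effect by region 24 h) and 169 to 519 (cut effect by time anterior). The last ranges were 24 to 314 (cut effect by time posterior), 40 to 121 (mean cut effect 24 h minus 12 h), 354 to 606 (mean region difference 12 h), 255 to 533 (time difference cut anterior), 7 to 538 (time difference uncut posterior) and 83 to 340 (culture effect at 24 h by region). Quantile normalization turned the sign of 13 member differences, none of them called: 0.36 for B-H2 (cut effect 12 h posterior), 0.15 for tio (cut effect 24 h anterior), 0.25 for Scr (culture effect 12 h anterior), -0.38 for B-H2 (cut effect by time anterior) and -0.48 for ap 1624412_at (cut effect by time anterior). It also gave -0.38 for bab1 (cut effect by time anterior), 0.11 for ap 1639498_a_at (mean cut effect 12 h), -0.73 for B-H2 (mean cut effect 24 h minus 12 h), -0.16 for Poxn (mean cut effect 24 h minus 12 h) and 0.21 for H15 (mean region difference 12 h). The others were -0.060 for ap 1624412_at (time difference cut anterior), -0.073 for Poxn (time difference cut anterior) and -0.37 for B-H2 (culture effect at 24 h by region). Leaving out 1 array turned 6 uncalled ones: bab1 (cut effect 12 h posterior, range -0.24 to 0.24, turned without cut 12 h posterior replicate 2), B-H2 (culture effect 12 h anterior, range -0.61 to 0.30, turned without uncut 12 h anterior replicate 2) and tio (cut effect 24 h anterior, range -0.14 to 0.11, turned without uncut 24 h anterior replicate 3). The rest were ap 1624412_at (culture effect 12 h anterior, range -0.58 to 0.023, turned without uncut 0 h anterior replicate 1), ap 1624412_at (culture effect 24 h anterior, range -0.42 to 0.25, turned without uncut 0 h anterior replicate 1) and bab2 (region difference uncultured, range -0.22 to 0.14, turned without uncut 0 h anterior replicate 3). The cause of these moves was not tested, beyond that fewer arrays leave fewer degrees of freedom and that quantile normalization gives every array the same spread. What the data cannot give is set by the centring within 3 sets of arrays and by 3 arrays per group. Signal over background is unknown.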
